A study of Homo sapiens with 18 samples.

Results

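The 43 genes described here build and fuel the DNA replication machinery. They load and start the replicative helicase, copy and join the strands, make deoxynucleotides, rebuild chromatin behind the fork, or drive the entry into S phase. They were taken by gene symbol from the platform annotation of Illumina bead arrays, and each gene was read from the kept probe with the highest mean level over the 18 arrays. All 43 had a probe, and 41 of them were among the 11978 genes tested. GINS1, a subunit of the GINS complex, was detected on 5 of 18 arrays and CCNE2, which encodes cyclin E2, on 0 of 18, so neither passed the detection filter.

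Total RNA came from 3 human urothelial (bladder) cancer cell lines, with 3 arrays in each of 6 groups. Scaber cells received siRNA against STAT3, a transcription factor activated by cytokines, or a non-targeting siRNA. UC14 cells carried shRNA against p63, a transcription factor of basal epithelial cells, or a non-targeting shRNA. UC7 cells were treated with rosiglitazone, an agonist of the nuclear receptor PPAR gamma, at 1 µM for 24 h, or were untreated controls. The series was designed to find genes downstream of p63, STAT3 and PPAR gamma, and each agent was tested in 1 line only, so line and agent cannot be told apart. The time after siRNA and the number of shRNA clones are not given in the sources used here.

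Before S phase, the origin recognition complex, CDC6 and CDT1 place the MCM2 to MCM7 helicase on origins. MCM10, CDC45 and the GINS complex then switch the helicase on, and polymerases, the PCNA clamp and its RFC loader copy the strands. Most of these genes are known targets of E2F transcription factors, which the retinoblastoma protein restrains until cyclin-dependent kinases inactivate it. Many are read as markers of proliferating cells, and in bulk RNA fewer cycling cells and less RNA per cell cannot be told apart.

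The E2F recognition sequence was looked for in the RefSeq promoters (GRCh38.p14), as windows of 300 bases from 250 bases before to 50 bases after a gene's start. The octamers searched were TTTCCCGC, TTTCGCGC, TTTGCCGC and TTTGGCGC, on both strands and with overlapping matches counted. The table held 37 of the 43 genes, and 21 of these 37 (56.8%) had an octamer in at least 1 window, against 636 of 9646 tested genes (6.59%) and 1090 of 27305 genes in the table (3.99%). The CCAAT box was in 21 of 37 (56.8%), against 4228 of 9646 tested genes (43.8%). 6 of the promoters are shown with 250 bases before the start, 5′ to 3′ on the gene's strand, with octamers in capitals. UHRF1 (chr19:4909251-4909500, plus strand) and DUT (chr15:48331947-48332196, plus strand) had the largest falls in Scaber by the chosen probes, CDCA7 (chr2:173354622-173354871, plus strand) fell in all 3 lines, and MCM6 (chr2:135876444-135876693, minus strand) held 4 matches as overlapping pairs. TK1 (chr17:78187053-78187302, minus strand) fell in Scaber with no octamer in this window, and E2F1 (chr20:33686386-33686635, minus strand) has octamers and did not pass there.
UHRF1: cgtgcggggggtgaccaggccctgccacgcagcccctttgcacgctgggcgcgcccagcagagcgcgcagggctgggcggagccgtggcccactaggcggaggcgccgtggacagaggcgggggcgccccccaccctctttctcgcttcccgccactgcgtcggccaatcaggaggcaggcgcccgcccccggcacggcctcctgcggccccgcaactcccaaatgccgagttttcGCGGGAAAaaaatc
DUT: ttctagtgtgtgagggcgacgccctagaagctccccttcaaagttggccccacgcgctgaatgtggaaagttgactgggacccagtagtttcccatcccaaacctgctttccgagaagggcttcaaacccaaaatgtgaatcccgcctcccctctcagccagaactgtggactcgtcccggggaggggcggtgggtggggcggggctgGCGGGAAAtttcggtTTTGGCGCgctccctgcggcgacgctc
CDCA7: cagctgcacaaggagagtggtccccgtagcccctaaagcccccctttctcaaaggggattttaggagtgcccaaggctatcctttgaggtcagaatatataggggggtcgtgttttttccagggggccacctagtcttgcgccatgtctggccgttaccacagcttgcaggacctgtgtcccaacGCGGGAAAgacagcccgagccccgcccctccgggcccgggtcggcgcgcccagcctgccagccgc
MCM6: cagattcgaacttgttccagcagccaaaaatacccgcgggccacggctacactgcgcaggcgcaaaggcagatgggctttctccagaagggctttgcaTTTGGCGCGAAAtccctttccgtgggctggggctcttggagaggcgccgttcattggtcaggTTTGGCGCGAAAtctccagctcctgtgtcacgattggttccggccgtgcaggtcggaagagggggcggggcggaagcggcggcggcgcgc
TK1: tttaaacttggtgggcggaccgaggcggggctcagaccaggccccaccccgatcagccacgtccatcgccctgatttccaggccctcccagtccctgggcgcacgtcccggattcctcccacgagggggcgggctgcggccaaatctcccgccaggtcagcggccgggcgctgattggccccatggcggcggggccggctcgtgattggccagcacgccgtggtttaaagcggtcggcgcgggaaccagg
E2F1: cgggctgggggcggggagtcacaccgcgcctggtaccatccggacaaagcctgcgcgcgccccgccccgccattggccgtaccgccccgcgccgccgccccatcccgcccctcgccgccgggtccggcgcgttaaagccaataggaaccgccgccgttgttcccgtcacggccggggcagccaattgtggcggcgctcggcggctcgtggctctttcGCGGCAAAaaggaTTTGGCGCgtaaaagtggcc

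Among the genes that fell in Scaber, 17 of 30 with a promoter in the table (56.7%) held an octamer, and among those tested that did not pass it was 3 of 6. The octamer was in 13 of 42 (31.0%) other replication and nucleotide genes and in 3 of 24 (12.5%) mitosis genes, of which 20 of 24 (83.3%) held CCAAT. A match describes the letters in this window only.

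Levels below are log2 intensities after background correction and quantile normalization, and changes are differences of group means on that scale ± SE with 3 arrays per group. Adjusted p is from limma over all 11978 genes with a threshold of 0.05. Between 14032 and 20440 probes were detected per array, with medians of the raw signal from 51.6 to 116. The lowest correlation between arrays of a group was 0.977, in the UC14 non-targeting arrays. Of 7 epithelial markers, 6 or 7 were detected on all 3 arrays in every group, with KRT5 missing in p63 shRNA cells and in both UC7 groups. Of 8 fibroblast and smooth muscle markers 2 or 3 were detected, of 4 immune markers 0 to 2, and of 4 endothelial markers 0 or 1.

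Most genes of the list, which was chosen with earlier results of these data known, fell in Scaber cells with STAT3 siRNA. Of the 41 genes tested, 34 fell (82.9%), 0 rose and 7 did not pass, where 13.8% of all genes were called lower and 12.1% higher. The median change of the 41 was -0.81, against 0.01 over all genes. Replication and nucleotide genes outside the list fell less often: of 46 tested, 18 fell (39.1%), 2 rose and 26 did not pass (median -0.16). The drop reached at least 2-fold in fitted value for 10 of the 41 (24.4%), compared with 262 of 11978 genes (2.19%). CCNE1 is among the 10 by fitted value, although it was undetected on the siRNA arrays and only a bound can be given. The values of the 3 siRNA arrays lay below those of the 3 non-targeting arrays for 36 of 41 genes, where this held for 19.2% of all genes. Median levels of the 41 were 8.09, 8.09 and 8.10 on the STAT3 siRNA arrays and 9.02, 9.12 and 9.14 on the non-targeting arrays. STAT3 itself had levels of 6.42, 6.84 and 6.65 in STAT3 siRNA cells, against 9.89, 9.93 and 9.89 in non-targeting cells, a change of -3.26 ± 0.11 (adjusted p = 4.93e-12).

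**Figure D1:**
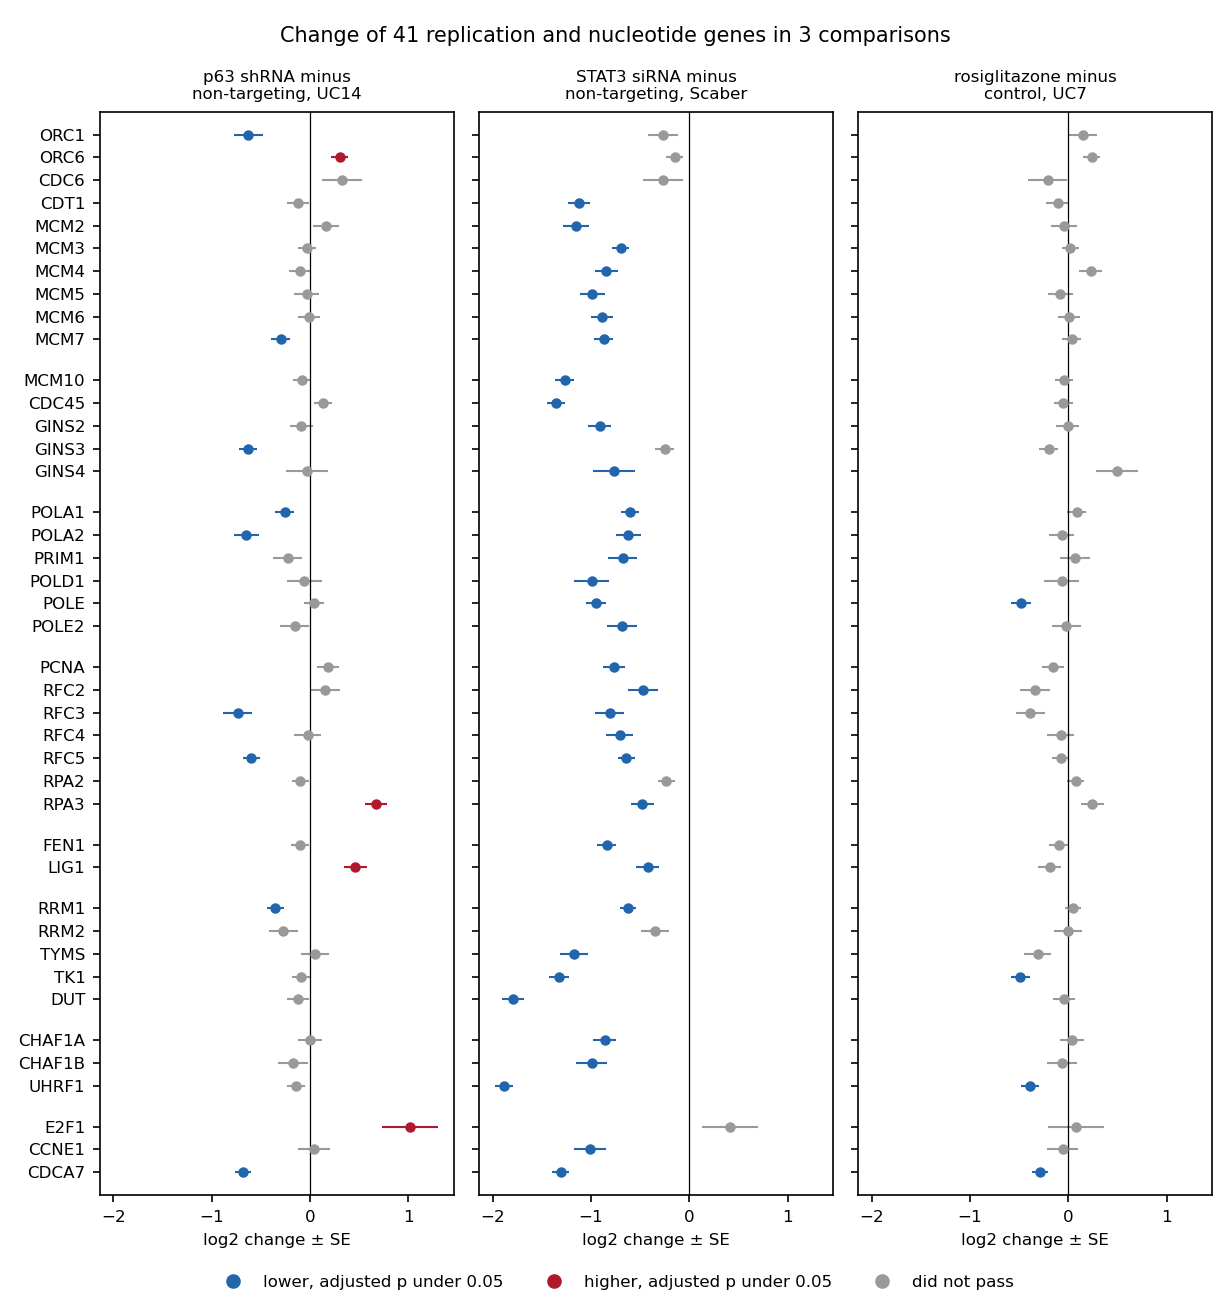
Each point is the log2 change of a gene (horizontal axis, with SE, 3 arrays per group) in UC14, Scaber and UC7, with genes grouped by role down the page and coloured by call. In Scaber 34 of 41 points are called lower and E2F1 alone lies above 0, while in UC7 4 are called lower. The E2F1 point in UC14 rests on signal detected on 1 of 3 p63 shRNA arrays and 0 of 3 non-targeting arrays.

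In origin licensing, 7 of 10 genes fell and 0 rose, with a median change of -0.86, and all 6 subunits of the MCM2 to MCM7 ring were among them (changes from -0.70 to -1.15). MCM2 had 8.09, 8.04 and 8.09 in STAT3 siRNA cells, against 9.35, 9.19 and 9.14 in non-targeting cells, a change of -1.15 ± 0.13 (adjusted p = 6.96e-06). CDT1, which recruits the ring to origins, had 8.08, 8.42 and 8.43, against 9.55, 9.45 and 9.27 in non-targeting cells (-1.12 ± 0.11, 1.82e-06). For both genes every siRNA array lay below every non-targeting array. By the chosen probes, the other loading factors gave smaller values that missed the threshold. ORC1, the largest subunit of the origin recognition complex, was at -0.27 (adjusted p = 0.209) and ORC6 at -0.15 (0.241). A second, dimmer ORC6 probe was at -0.76 and passed as lower, and the mean of both probes passed at -0.45. CDC6 was undetected on all 6 Scaber arrays, so it has no fold there.

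Of the 5 tested genes that switch the helicase on, 4 fell (median -0.91). CDC45, which joins MCM and GINS into the moving helicase, had 8.32, 8.43 and 8.44 in STAT3 siRNA cells, against 9.89, 9.64 and 9.74 in non-targeting cells, a change of -1.36 ± 0.09 (adjusted p = 2.28e-08). MCM10, a factor needed for helicase activation, had 6.20, 6.04 and 5.93, against 7.38, 7.29 and 7.31 in non-targeting cells (-1.27 ± 0.10, 7.85e-08). Both were separated by more than 1 log2 unit between every pair of opposite arrays. GINS2 fell by 0.91. GINS4 changed by -0.76 (adjusted p = 0.014), was detected on 2 of 3 siRNA arrays, and did not pass without STAT3 siRNA replicate 3 (-0.51) or without non-targeting replicates 1 (-0.68) or 3 (-0.63). GINS3 was at -0.25 (0.0658), and passed without non-targeting replicate 3 (-0.31).

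All 6 polymerase and primase genes fell, by 0.60 to 0.99. POLD1, the catalytic subunit of polymerase delta, had 4.95, 5.69 and 5.71 in STAT3 siRNA cells, where it was detected on 2 of 3 arrays, against 6.40, 6.79 and 6.13 in non-targeting cells (-0.99 ± 0.18, adjusted p = 0.000588). POLE, the catalytic subunit of polymerase epsilon, had 5.87, 6.07 and 5.80, against 6.90, 6.92 and 6.77 in non-targeting cells (-0.95 ± 0.10, 3.77e-06). Neither gene overlapped between groups, although POLD1 spread more within each group. POLE2, a subunit of polymerase epsilon, and PRIM1, the catalytic subunit of the primase that starts each new strand, each fell by 0.68. POLA2 and POLA1 of the primase-bound polymerase alpha fell by 0.62 and 0.60.

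Of the clamp, clamp loader and single-strand binding genes, 6 of 7 fell (median -0.64). RFC3, a clamp loader subunit, had 6.75, 6.42 and 6.89 in STAT3 siRNA cells, against 7.42, 7.30 and 7.77 in non-targeting cells (-0.81 ± 0.15, adjusted p = 0.000624). PCNA, the sliding clamp, had 10.41, 10.41 and 10.61, against 11.21, 11.09 and 11.41 in non-targeting cells (-0.76 ± 0.11, 0.0001). By the chosen probes both were lower on all siRNA arrays. A second, dimmer PCNA probe was at 0.12 and did not pass, and the mean of both PCNA probes lost the call (-0.32, 0.0837). RFC4 and RFC5 fell by 0.71 and 0.64 and RPA3, the smallest subunit of the single-strand binding protein RPA, by 0.48. RFC2 changed by -0.47 (0.0326) with overlapping groups, and did not pass without STAT3 siRNA replicates 2 (-0.40) or 3 (-0.38) or non-targeting replicates 1 (-0.48) or 3 (-0.36). RPA2, another RPA subunit, was at -0.23 (0.0659) and passed without STAT3 siRNA replicate 3 (-0.30).

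Both genes that finish Okazaki fragments fell. FEN1, the nuclease that trims their flaps, had 8.68, 8.64 and 8.63 in STAT3 siRNA cells, against 9.56, 9.31 and 9.58 in non-targeting cells (-0.84 ± 0.09, adjusted p = 6.44e-06). LIG1, the ligase that seals them, had 6.58, 6.70 and 6.66, against 7.19, 7.13 and 6.89 in non-targeting cells (-0.42 ± 0.11, 0.0115). With non-targeting replicate 1 left out it missed the threshold (-0.36). The groups did not overlap for either gene.

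Of the 5 nucleotide synthesis genes 4 fell (median -1.17), and DUT had the largest fall of the 41 after UHRF1 by the chosen probes. DUT, which breaks down dUTP and so keeps uracil out of DNA, had 6.35, 6.53 and 6.52 in STAT3 siRNA cells, against 8.42, 8.25 and 8.11 in non-targeting cells, a change of -1.80 ± 0.11 or 3.47-fold (adjusted p = 7.37e-09). TK1, the thymidine kinase of the salvage pathway, had 8.11, 8.04 and 7.86, against 9.43, 9.25 and 9.31 in non-targeting cells (-1.32 ± 0.10, 5.19e-08). Both stood clear of the non-targeting arrays by more than 1 log2 unit. TYMS, which makes thymidylate, fell by 1.17 and RRM1, the large subunit of ribonucleotide reductase, by 0.62. Its small subunit RRM2 was at -0.35 (0.0878). RRM2 passed without STAT3 siRNA replicate 2 (-0.51) or non-targeting replicate 1 (-0.46).

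**Figure D2:**
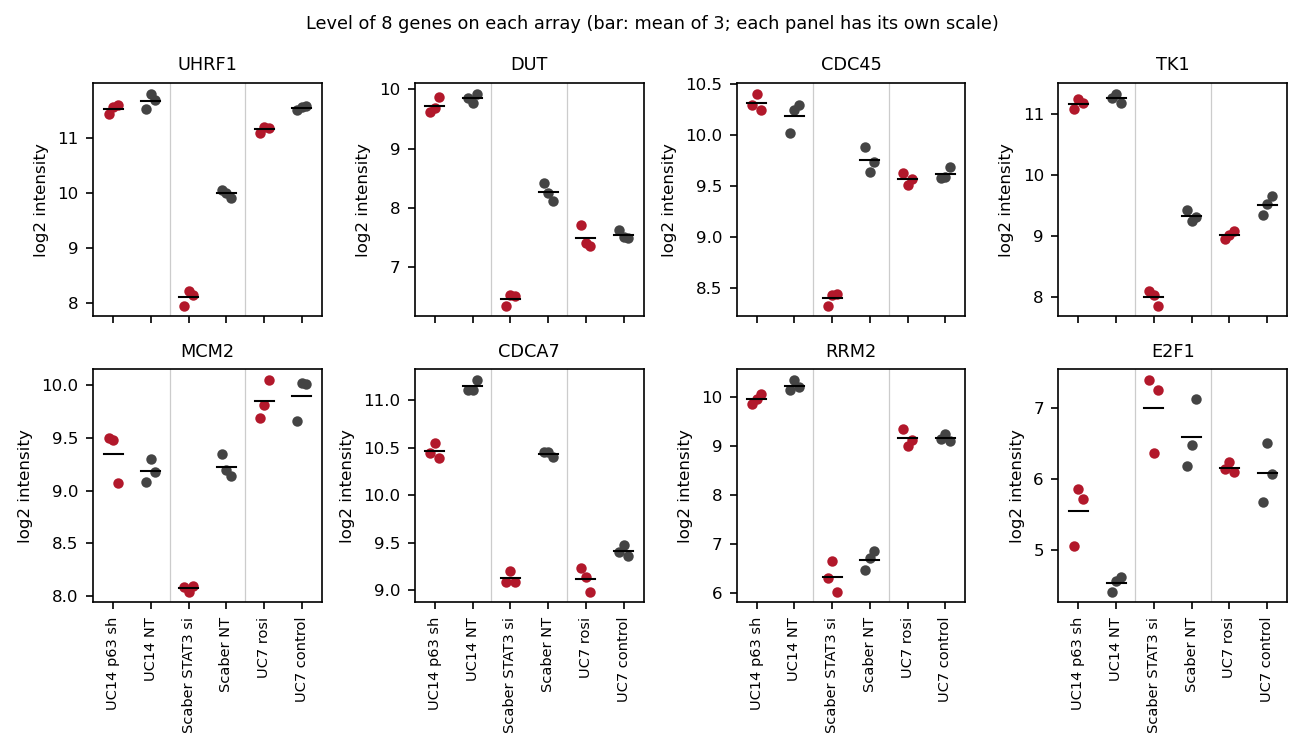
Points are log2 intensities of 8 genes on each array (vertical axis, a scale of its own per panel), treated groups in red and their controls in grey, NT for non-targeting, with bars at the mean of 3 arrays. UHRF1, DUT, CDC45, TK1, MCM2 and CDCA7 are separated in Scaber, while RRM2 and E2F1 overlap there.

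All 3 genes of chromatin behind the fork fell. UHRF1, which brings the maintenance methyltransferase to newly copied DNA, had the largest change of the 41 by the chosen probes. Averaged over its probes it changed by -1.22, less than DUT (-1.60), CDC45 (-1.36), TK1 (-1.32) and CDCA7 (-1.31). Its levels were 7.96, 8.21 and 8.15 in STAT3 siRNA cells, against 10.05, 10.00 and 9.91 in non-targeting cells, a change of -1.88 ± 0.09 or 3.69-fold (adjusted p = 4.24e-10). CHAF1B, a subunit of the histone chaperone CAF-1, had 6.28, 6.38 and 6.30, against 7.50, 7.48 and 6.96 in non-targeting cells (-0.99 ± 0.15, 0.000142). Both were lower on every siRNA array, and CHAF1A, the largest CAF-1 subunit, fell by 0.86.

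Of CDCA7, CCNE1 and E2F1, the 3 tested genes grouped here as G1/S regulators, 2 fell. CDCA7, a chromatin factor that works with the remodeller HELLS, had 9.09, 9.21 and 9.09 in STAT3 siRNA cells, against 10.46, 10.45 and 10.41 in non-targeting cells (-1.31 ± 0.08, adjusted p = 1.01e-08). CCNE1, which encodes cyclin E1, the partner of CDK2, had 4.73, 4.63 and 5.34, against 6.15, 5.96 and 5.61 in non-targeting cells. It was undetected on all 3 siRNA arrays, so only a bound can be given, at least 1.43-fold lower (adjusted p = 0.000196). E2F1, 1 of the E2F transcription factors, had 7.41, 6.37 and 7.26 in STAT3 siRNA cells, against 6.18, 6.48 and 7.13 in non-targeting cells. It was the only one of the 41 with a change above 0 in Scaber (0.41 ± 0.28, 0.318), and its groups overlapped.

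**Figure D3:**
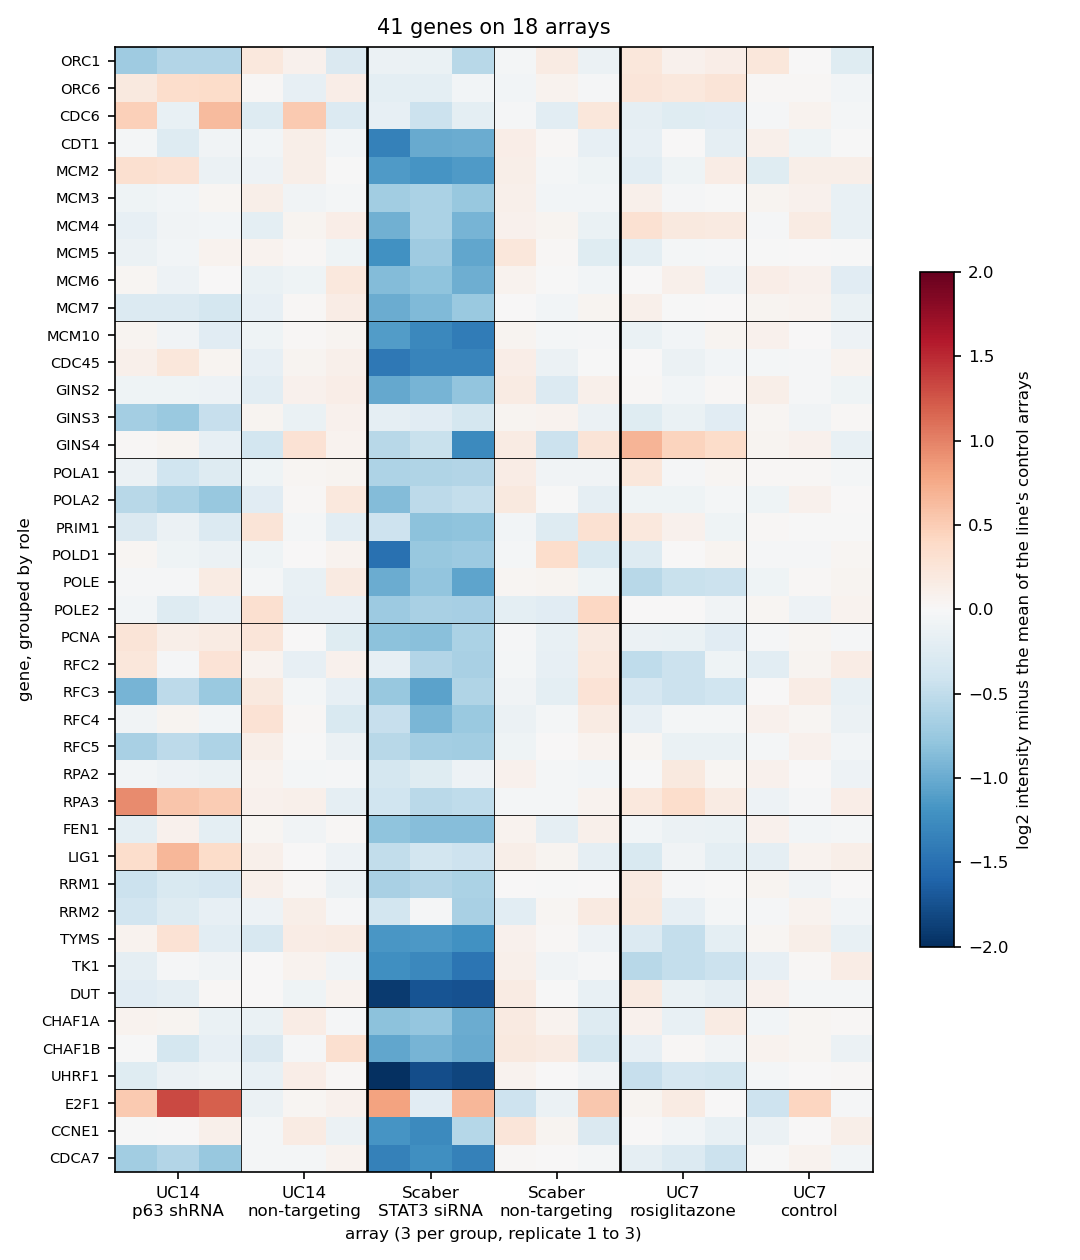
Rows are the 41 genes by role and columns the 18 arrays, coloured by log2 intensity minus the mean of the 3 control arrays of the same line. The 3 Scaber STAT3 siRNA arrays are blue in most rows, with medians of 8.09 to 8.10 against 9.02 to 9.14 on the non-targeting arrays before centring.

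p63 shRNA in UC14 moved single genes of the list both ways, at shares that for falls were close to those of all genes. Of the 41, 9 fell (22.0%), 4 rose (9.76%) and 28 did not pass, where 20.9% of all genes were called lower and 23.8% higher. Their median change was -0.09, against 0.01 over all genes, but 0.048 against 0.099 under median scaling. The groups did not overlap for 11 genes that were lower and 4 that were higher, where 22.3% and 24.7% of all genes did so. The falls were in ORC1, MCM7, GINS3, POLA1, POLA2, RFC3, RFC5, RRM1 and CDCA7. The 4 called higher were ORC6, RPA3, LIG1 and E2F1. Of these, E2F1 was undetected on every non-targeting array, and the ORC6 call was lost with the mean of its probes. TP63, the gene that encodes p63, was not analysed here, so its knockdown was not checked.

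ORC1 had 6.93, 7.04 and 7.04 in p63 shRNA cells, against 7.84, 7.71 and 7.33 in non-targeting cells (-0.63 ± 0.15, adjusted p = 0.00229). GINS3 had 8.30, 8.24 and 8.53, against 9.05, 8.85 and 9.07 in non-targeting cells (-0.63 ± 0.10, 4.72e-05). In both the p63 shRNA arrays lay below all non-targeting arrays. ORC6 was called higher by its chosen probe, and the other tested GINS genes did not pass. Differences between members of a complex were not tested. POLA2, the accessory subunit of polymerase alpha, had 8.74, 8.67 and 8.54 in p63 shRNA cells, against 9.07, 9.33 and 9.51 in non-targeting cells (-0.65 ± 0.13, 0.000489). RFC3 had 8.10, 8.51 and 8.29, against 9.23, 9.00 and 8.88 in non-targeting cells (-0.74 ± 0.15, 0.000592), and was the largest fall. RFC5, another clamp loader subunit, fell by 0.60 as well.

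RRM1 had 12.08, 12.21 and 12.18 in p63 shRNA cells, against 12.61, 12.53 and 12.39 in non-targeting cells (-0.35 ± 0.08, adjusted p = 0.00239). CDCA7 had 10.45, 10.56 and 10.39, against 11.11, 11.11 and 11.22 in non-targeting cells (-0.68 ± 0.08, 5.29e-06). Neither gene overlapped between groups. POLA1, the catalytic subunit of polymerase alpha, had 7.82, 7.54 and 7.69 in p63 shRNA cells, against 7.85, 7.98 and 7.99 in non-targeting cells (-0.26 ± 0.10, 0.0361). That call was lost without p63 shRNA replicates 2 (-0.19) or 3 (-0.26), without non-targeting replicates 2 (-0.24) or 3 (-0.23), and with the mean of its probes (-0.08). MCM7 changed by -0.30 (0.0161) and did not pass without p63 shRNA replicate 3 (-0.28) or non-targeting replicate 3 (-0.23). A second, dimmer MCM7 probe was at -0.56 (0.000688, adjusted over probes).

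Of the genes called higher, RPA3 had 11.84, 11.45 and 11.41 in p63 shRNA cells, against 10.98, 11.00 and 10.71 in non-targeting cells (0.67 ± 0.12, adjusted p = 0.000167). LIG1 had 8.61, 8.92 and 8.61, against 8.36, 8.26 and 8.15 in non-targeting cells (0.46 ± 0.11, 0.00349). Both were above every non-targeting array. ORC6 had 14.08, 14.24 and 14.25 in p63 shRNA cells, against 13.92, 13.73 and 14.02 in non-targeting cells (0.30 ± 0.09, 0.0094), a call lost when non-targeting replicate 2 was left out (0.22), with the mean of its probes (0.15, 0.161) and with the UC14 arrays alone (0.088). E2F1 had 5.06, 5.86 and 5.72, against 4.41, 4.56 and 4.62 in non-targeting cells (0.00745). It was detected on 1 of 3 p63 shRNA arrays and 0 of 3 non-targeting arrays, so no fold is given. Among those that did not pass, PCNA (0.18) passed without non-targeting replicate 1 (0.30). CDC6 was detected on 2 of 3 p63 shRNA and 1 of 3 non-targeting arrays and is given no fold, and its call changed when replicate 2 of either group was left out.

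Rosiglitazone in UC7 left most of these genes within a narrow range. Of the 41, 4 fell (9.76%), 0 rose and 37 did not pass, where 12% of all genes were called lower and 12.5% higher. The median change was -0.05, against 0.00 over all genes. The 95% interval of the change lay within 1.5-fold either way for 33 of 41 (80.5%), and for 61.9% of all genes. In UC14 this held for 31 of 41 (75.6%) and 46.2% of all genes, and in Scaber for 4 (9.76%) and 58.9%. POLE had 8.60, 8.71 and 8.72 in rosiglitazone cells, against 9.07, 9.18 and 9.22 in control cells (-0.48 ± 0.10, adjusted p = 0.00196). TK1 had 8.95, 9.02 and 9.08, against 9.34, 9.53 and 9.66 in control cells (-0.49 ± 0.10, 0.00123). These changes, about 0.5 log2 units, were the largest falls of the list here. UHRF1 had 11.09, 11.20 and 11.17 in rosiglitazone cells, against 11.51, 11.55 and 11.56 in control cells (-0.39 ± 0.09, 0.00471). CDCA7 had 9.24, 9.14 and 8.99, against 9.40, 9.48 and 9.36 in control cells (-0.29 ± 0.08, 0.0167). None of the 4 overlapped between groups, and over the 41 the groups were apart for 10 lower and 4 higher genes, where 25.4% and 25% of all genes were. The CDCA7 call was lost without rosiglitazone replicate 3 (-0.22) or control replicate 2 (-0.26). A second, dimmer UHRF1 probe was at 0.48 and passed as higher when tested over probes. The mean of both UHRF1 probes was at 0.04 (0.841).

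The spread of a gene was pooled over all 18 arrays, and calls changed in each line when it was not. With the Scaber arrays alone, GINS4 (adjusted p = 0.0663) and RFC2 (0.0715) did not pass. With the UC14 arrays alone, ORC6 (0.088), MCM7 (0.0822) and POLA1 (0.122) did not pass. With the 6 UC7 arrays alone, 3 of the 41 rose and 8 fell, while 2400 and 2431 of all genes did. RFC3 (-0.39, adjusted p = 0.0656) passed at 0.00288 and the chosen ORC6 probe (0.24, 0.0574) at 0.0259 in that fit. The other ORC6 probe was at -0.50 in UC7 (0.00421, adjusted over probes) and the mean of both at -0.13.

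The difference between the Scaber and UC14 changes was itself tested. It was lower in Scaber for 27 of 41 genes and higher for 1, GINS3, where 23.0% of all genes were called lower and 19.1% higher (median difference -0.74). The number higher was 0 under median scaling, with array weights and with the compared lines alone. It was also 0 without p63 shRNA replicates 1 or 2 or non-targeting replicate 1 in UC14, and without STAT3 siRNA replicates 1 or 2 or non-targeting replicate 3 in Scaber. Against UC7 it was lower in Scaber for 32 of 41 and higher for 0, where 15.3% and 12.8% of all genes were called (median -0.74). The Scaber change lay below both others for 25 of 41, where this held for 9.77% of all genes. It lay below neither for ORC1, GINS3, RFC3, RPA2 and RRM2. CDC6 and E2F1 are not compared across lines, since CDC6 was undetected on all 6 Scaber arrays and E2F1 on all 3 non-targeting UC14 arrays. UHRF1 differed by -1.74 ± 0.13 from UC14 and by -1.49 ± 0.13 from UC7, and DUT by -1.67 ± 0.16 and -1.75 ± 0.16. Between UC7 and UC14, 6 of 41 were higher in UC7 and 3 lower, where 15.1% and 18% of all genes were (median 0.03). Under median scaling 0 were higher and 6 lower (median -0.17).

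CDCA7 was called lower in all 3 lines. RFC3, at -0.39 in UC7 (adjusted p = 0.0656), was the nearest to a second such gene, and passed in UC7 under 8 of 16 alternatives. CDCA7 fell most in Scaber, by 0.63 ± 0.12 more than in UC14 and by 1.02 ± 0.12 more than in UC7. Together with CDCA7, MCM7, POLA1, POLA2, RFC3, RFC5 and RRM1 were lower in both Scaber and UC14, 7 of the 34 genes that fell in Scaber and 7 of the 9 that fell in UC14. With 34 of 41 lower in Scaber, this share is near that of the list. Of all genes lower in UC14, 17% were also lower in Scaber. RPA3 and LIG1 fell in Scaber and rose in UC14, with differences of -1.15 ± 0.16 and -0.88 ± 0.16. Across the 41 genes, as a description, the Scaber and UC14 changes had a Pearson r of 0.25 (Spearman rho 0.05), the Scaber and UC7 changes 0.37 (0.38), and the UC14 and UC7 changes 0.17 (0.03). The arrays were normalized together, and genes are not independent replicates.

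Genes of mitosis, of other replication steps and of G1/S control are set beside these genes as 3 further lists. Of 30 mitosis genes, 29 fell in Scaber and 0 rose (median -0.77), with MKI67, the proliferation antigen, at -0.03. The shares of all genes called lower and higher were 13.8% and 12.1% in Scaber, 20.9% and 23.8% in UC14, and 12% and 12.5% in UC7, and apply beside each of the 3 lists. The kinetochore genes NUF2 and CENPF fell by 1.20 and 1.07 and topoisomerase TOP2A by 1.07. In UC14 15 of the 30 fell and 3 rose (median -0.29), and in UC7 2 fell and 1 rose (0.03), which is below the shares of all genes. MKI67 (0.86), CDK1 (0.46) and NUSAP1 (0.35) were the 3 that rose in UC14, while the cyclin CCNA2 fell by 0.77.

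Of 46 tested genes with other parts in replication and nucleotide supply, 18 fell and 2 rose in Scaber (median -0.16). CDC7, the kinase that fires origins, fell by 1.28, the fork protector TIMELESS by 1.10 and the licensing inhibitor GMNN by 1.02. The histone chaperone ASF1A (0.53) and the deaminase DCTD (0.30) rose. In UC14 17 fell and 3 rose (-0.19). The polymerase epsilon subunit POLE3 fell by 1.17 and IMPDH2 of guanine nucleotide synthesis by 0.85, while POLD4 of polymerase delta (1.21) and the helicase MCM8 (0.76) rose. In UC7 5 of 46 fell (10.9%), near the share of all genes, and 1 rose (-0.09), with DSCC1 at -0.52 and NASP at 0.40.

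Of 25 tested genes that control the step from G1 to S, 7 fell and 2 rose in Scaber (median -0.04). The D-cyclin kinase CDK6 fell by 1.43, the repressor E2F7 by 1.10 and the retinoblastoma gene RB1 by 1.07, while E2F5 (0.47) and E2F6 (0.28) rose. In UC14 9 of 25 fell (36%) and 5 rose (20%, near that of all genes; median -0.15). There CDK6 fell by 3.51, E2F5 by 1.12 and MYC by 0.93, while E2F2 rose by 1.08. In UC7 4 of 25 fell (16%) and 1 rose (-0.08), again near the share of all genes for falls, with MYC at -1.69, the cyclin CCND1 at -1.01, CDK6 at -0.83 and E2F2 at 1.51.

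**Figure D4:**
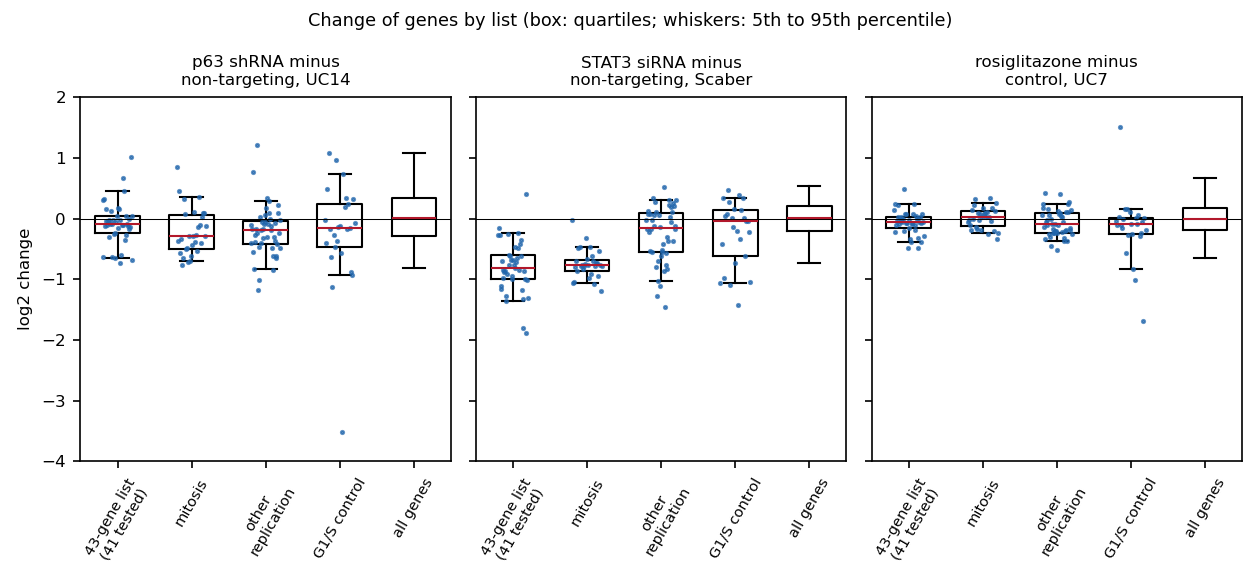
Log2 changes (vertical axis) of the tested genes of each list in UC14, Scaber and UC7, with boxes at the quartiles, red lines at the median, whiskers at the 5th and 95th percentile and a point per gene (none drawn for all genes). In Scaber the 43-gene list (41 tested, median -0.81) and the mitosis genes (-0.77) lie below 0, and the other replication (-0.16) and G1/S control genes (-0.04) spread to both sides.

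Further kept probes gave a second reading for 15 of the 41 genes. Of these 16 probes, 14 were below 0 in Scaber and 11 passed as lower, with 0 higher. In UC14 9 of the 16 were below 0, with 4 lower and 1 higher, and in UC7 8, with 1 lower and 1 higher. The one higher in UC14 was a DUT probe (0.61, adjusted p = 0.00701 over probes), and the one higher in UC7 was the second UHRF1 probe. In Scaber both other DUT probes fell (-1.20 and -1.81), as did the second probes of MCM7 (-1.25), MCM4 (-1.06) and UHRF1 (-0.56). A dimmer ORC6 probe, at a mean level of 8.67 against 14.18 for the chosen probe, was at -0.76 in Scaber, 0.00 in UC14 and -0.50 in UC7. Second probes of PCNA (0.12), CCNE1 (0.30), MCM10 (-0.20), POLA1 (-0.07) and RFC2 (-0.19) did not pass. When the probes of a gene were averaged, PCNA (-0.32) and CCNE1 (-0.36) lost their calls and ORC6 (-0.45) gained one.

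The 3 lines stood at different levels in their control cells. These were non-targeting siRNA cells in Scaber, non-targeting shRNA cells in UC14 and untreated cells in UC7. Scaber non-targeting cells were lowest, with no overlap with either other line's controls, for 18 of 41 genes (43.9%), where this held for 21.4% of all genes. UC14 non-targeting cells were highest for 17 (41.5%), where 20.4% of all genes were. Median levels over the 41 were 9.11 in Scaber, 9.93 in UC14 and 9.16 in UC7 control cells. Line, kind of control and handling cannot be told apart in these levels.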

How the data were processed

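Per the file headers, the deposited table of 47323 probes holds a non-normalized signal intensity on the linear scale and a detection p-value per probe and array, exported by the authors. A second table deposited by the authors holds quantile normalized log2 values. In the submitters' processing notes limma is named, with no version. Whether replicate arrays stem from separate cultures is not given in the labels, so p-values reflect array-to-array spread that may be technical, and the number of arrays limits the precision.

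Intensities went through neqc of limma 3.58.1 in R 4.3.3 (normexp background from detection p-values, offset 16, quantile normalization, log2). A named probe was kept if any group had it at a detection p under 0.01 on each of its 3 arrays (16221 of 30113 with 1 gene symbol), and the probe with the highest mean stood for each of 11978 genes. For RFC3 the highest raw mean would have chosen its other probe. A model with a mean per group was fitted to the 18 arrays with eBayes (12 residual and 4.29 prior degrees of freedom). Treated minus control changes and their differences between lines were tested two-sided, with Benjamini-Hochberg adjustment over all genes. A gene's SE is pooled over all arrays and is the same in each comparison. A bound sets the brighter group's mean against, per array, the higher of the probe's own signal and the lowest detected signal. The fit was tested on simulated data.

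The members and the lists were chosen with earlier results of these data known. Up to 2 genes per role with the largest called changes, those called against the majority, and non-passing genes where 10 or fewer are named with values; from each further list up to 3 rises and 3 falls. Replicate numbers did not pair the arrays: same-numbered arrays had correlations of deviations from -0.11 to 0.26. Differently numbered arrays had -0.32 to 0.29, with both extremes in Scaber. Promoters are RefSeq's for GRCh38.p14, with the window of most octamers shown per gene. Alternatives changed the background correction, scaling, filter, probe rule, array weights, arrays fitted, replicate block and arrays left out.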

Additional observations from a re-analysis of the deposited data

How the results depend on the processing

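With 3 arrays per group the member counts of Scaber were the steadiest: 32 to 35 genes were lower and 0 higher over the alternatives. The size of the median fall moved with the processing. It was -0.55 without background correction, -0.58 on the authors' log2 values, -0.91 under median scaling, -0.76 with no detection filter and -0.72 with the mean of kept probes. Median scaling shifted the median of all genes to 0.10 in UC14, -0.07 in Scaber and -0.06 in UC7, and of the differences to -0.23 (Scaber minus UC14) and -0.19 (UC7 minus UC14). Under it the genes called higher and lower were 3148 and 1270 in UC14, 411 and 1909 in Scaber, 1092 and 1610 in UC7, 891 and 3471 for Scaber minus UC14, 812 and 2714 for UC7 minus UC14, and 1075 and 1742 for Scaber minus UC7. The UC14 median of the list reversed to 0.048 under median scaling, below the shift of all genes, and was -0.057 with the mean of kept probes. The UC7 median was -0.13 under median scaling, which also ended the calls of MCM7, POLA1 and RRM1 in UC14 and of CDCA7 in UC7.

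In UC7, 3 genes rose and 8 fell both with array weights and with the 6 arrays alone (2453 and 2441, and 2400 and 2431, over all genes), and 1 rose without background correction, on the authors' log2 values and among the 36 members detected on all 18 arrays. UHRF1 reversed to 0.044 with the mean of its probes. The median difference of Scaber from UC14 was -0.51 without background correction, -1.0 under median scaling, -0.55 on the authors' log2 values, -0.63 with the mean of kept probes and -0.78 with array weights, and 0 genes were higher under median scaling, with array weights or with the arrays of the compared lines alone. That from UC7 was -0.57, -0.80, -0.58 and -0.67 under the first 4 of these settings. For UC7 minus UC14, median scaling gave 0 higher, 6 lower and a median of -0.17, and 1418 of 7356 genes detected on all 18 arrays were lower. With each array left out in turn, the list median ranged from -0.098 to -0.055 in UC14, -0.83 to -0.72 in Scaber, -0.81 to -0.69 for Scaber minus UC14 and 0.0036 to 0.079 for UC7 minus UC14, where 2 to 5 genes were lower. The cause of these shifts was not tested.

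The replicate number as a block changed the call of POLA1 in UC14 (-0.26, adjusted p = 0.0706) and of no other gene of the list. Blocking UC7 by the letter in the titles, which disagrees with the replicate numbers for 2 arrays, ended the CDCA7 call (0.0584) and passed RFC3 (0.0499).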
